A study of Mus musculus with 15 samples.

Results

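The genes described here are 50 mouse genes of the kinetochore, the spindle and mitotic control, chosen as a fixed list of symbols and read in 6 libraries of rRNA-depleted total RNA from cultured pre-B cells. Of 55335 gene identifiers in the files, 13077 passed a filter on low counts, and all 50 listed genes were among them. The libraries fall into 3 titled MSL2KO and 3 titled MSL2WT. The parental cells were derived, per the labels, from bone marrow without SLP65, the adaptor encoded by Blnk, and were kept as 1 single-cell clone in medium with interleukin 7. The knockout line was made from such cells by electroporation of a guide RNA against Msl2, so that both groups share the SLP65 loss and the wild-type group is the unedited clone. MSL2, a RING-finger ubiquitin ligase, belongs to the MSL complex together with the histone acetyltransferase MOF. The comparison asks which genes differ in RNA level when Msl2 is edited. For all 6 libraries the genotype tag contradicts the title and the description. Groups here follow the titles, and if the tags were right each direction below would turn round. Each genotype appears to be 1 line, and nothing in the labels tells separate cultures from repeat libraries of 1 culture. The p-values here thus rest on a spread among libraries that may be technical alone.

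At mitosis each chromosome is held by a kinetochore, a protein assembly built on centromeric chromatin that carries the histone variant CENP-A. An inner layer of CENP proteins binds this chromatin, and an outer layer, with the NDC80 complex at its core, grips the microtubules of the spindle. The spindle checkpoint delays anaphase until all kinetochores are attached, CDK1 with its cyclins drives entry into mitosis, and Aurora and Polo-like kinases, kinesin motors and cytokinesis factors carry the division through. Most of these genes are transcribed in G2 and M phase, so their RNA in a cell population also follows how many cells are dividing. Pre-B cells grown with interleukin 7 are a cycling stage of the B lineage.

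Total counts ranged from 15250975 to 20803227 in the knockout libraries and from 14092278 to 17437198 in the wild-type libraries. The 50 genes took 0.906% to 0.968% of all reads in the knockout and 0.795% to 0.825% in the wild type. Msl2 RNA was not lost, at 103 to 121 CPM (counts per 1000000 reads, with library sizes scaled by TMM) in the knockout and 92.3 to 99.3 CPM in the wild type. This is no check of the labels, since reads outside an edited stretch are counted too, and the edit itself was not examined. Blnk RNA was present as well, at 108 to 116 CPM in the knockout and 83.2 to 120 CPM in the wild type. A list of 12 pre-B cell markers summed to between 2320 and 2360 CPM in the knockout and between 2400 and 2540 CPM in the wild type. None of the 12 was at 0 in all 6 libraries. Rag1 had 29, 17 and 9 reads in knockout libraries 1, 2 and 3, against 0, 34 and 0 reads in wild-type libraries 1, 2 and 3. Rag2 had 54, 44 and 37 reads in the knockout libraries, against 0, 27 and 0 reads in the wild-type libraries (adjusted p 0.223 in edgeR). Of these markers 11 were tested and edgeR called 1, against 4.59% of all tested genes. Limma-voom called 1 lower and 1 higher. The edgeR call was Il7r, the receptor chain for the interleukin 7 in the medium. Il7r fell to 24.7, 40.7 and 18.9 CPM in the knockout libraries, against 76.1, 96.3 and 73.6 CPM in the wild-type libraries (adjusted p 0.00392). The part of these differences in the results below was not tested. Of 12 T and NK cell markers 4 had no read in any library, and the list summed to 3.3 to 4.6 CPM in the knockout and 2.06 to 4.68 CPM in the wild type. Of 10 myeloid markers 5 had none, and the sums were 0.264 to 0.995 CPM in the knockout and 0.133 to 1.02 CPM in the wild type. Erythroid (6 genes) and stromal or endothelial (8 genes) markers summed to 133 to 191 and 115 to 131 CPM in the knockout, and to 146 to 170 and 103 to 123 CPM in the wild type. Nearly all of those reads were from Hbb-bt, a globin gene with near-identical copies, and from Pecam1, while Kdr, which marks endothelium, was at 0 throughout.

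Most of the mitotic genes were slightly higher in the knockout libraries, but few passed the test. Of the 50 genes, 3 rose (Kif23, Cenpf and Cenpe) and 1 fell (Spc24) at an adjusted p under 0.05, where 1.8% of all tested genes rose and 2.79% fell. At an unadjusted p under 0.05 there were 15 of 50, against 15.4% of all tested genes. The log2 fold change (knockout over wild type) was positive for 43 of the 50 genes and for 51% of all tested genes. Its median was 0.13 over the 50 genes and 0.00395 over all tested genes. For 16 of the 50 genes the lowest knockout library exceeded the highest wild-type library, against 9.68% of all tested genes, and for 1 the order was opposite, against 11.2%. In either direction the groups were separate for 17 of the 50, against 20.9%. The 95% interval of the difference lay within a 1.5-fold change in either direction for 48 of the 50, the exceptions being Spc24 and Cenpb. The positions given below are RefSeq's, and 18 of the 50 genes, among them Ect2, Anln, Nusap1, Kif11 and Top2a, overlap another annotated gene with which they may share reads, since no strand setting was stated. In bulk RNA, a change in the number of dividing cells and a change in RNA per cell cannot be told apart.

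**Figure D1:**
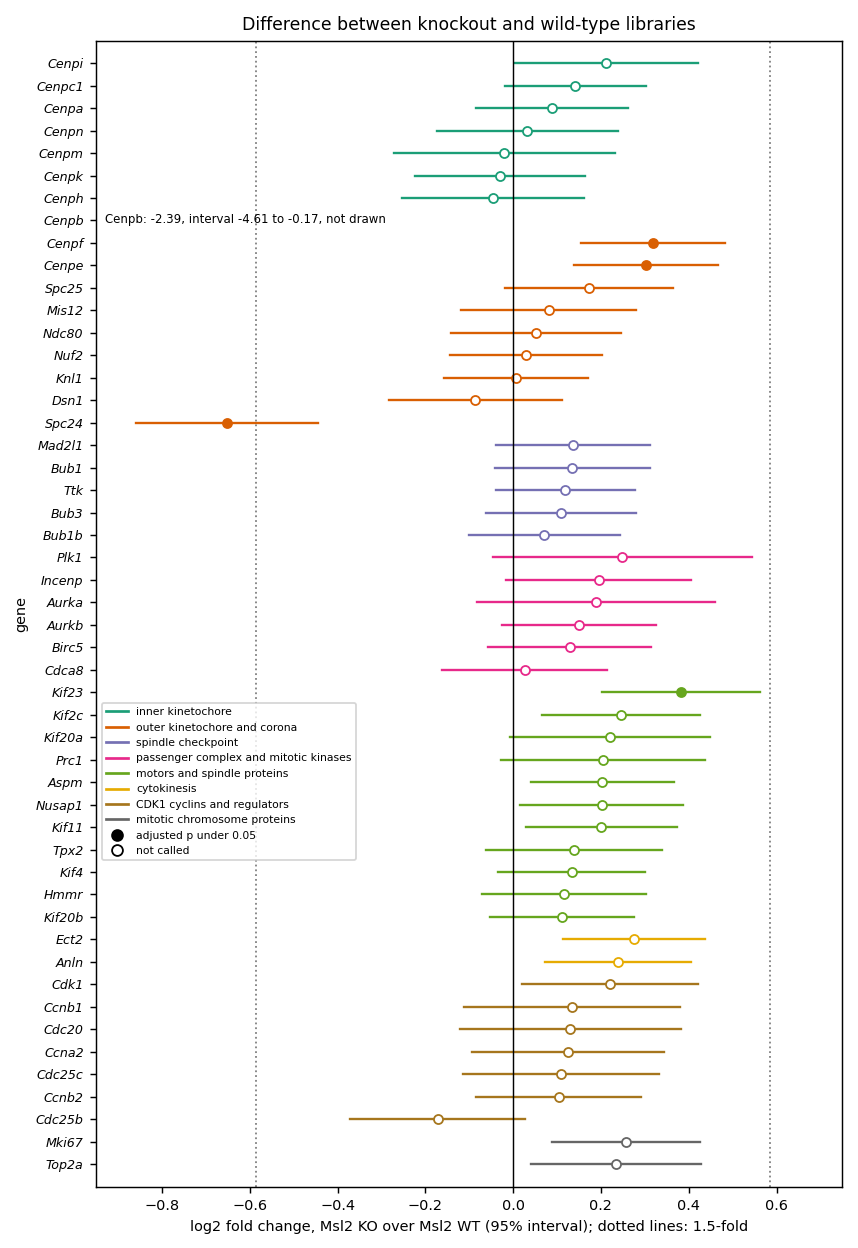
The horizontal axis gives the log2 fold change of each gene, knockout over wild type, with its 95% interval, and the vertical axis lists the genes grouped and coloured by role. Filled points mark the 4 called genes, dotted lines mark 1.5-fold, and Cenpb, at -2.39, is written and not drawn; 43 of the 50 genes lie right of 0.

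The outer kinetochore held 9 genes, of which 2 rose and 1 fell, where 1.8% of all tested genes rose and 2.79% fell. The one that fell was a single subunit of a 4-part complex. SPC24 pairs with SPC25 at the inner end of the NDC80 complex and ties it to the kinetochore. Spc24 (ENSMUSG00000074476.6, chromosome 9, 21755434 to 21760446, mm10) was at 35.9, 32.95 and 32.999 CPM in knockout libraries 1, 2 and 3, against 56.3, 47.5 and 56.3 CPM in wild-type libraries 1, 2 and 3. All knockout libraries lay below all wild-type libraries. The means were 33.9 ± 1.7 CPM in the knockout and 53.4 ± 5.1 CPM in the wild type (SD, n = 3 each), 1.57-fold lower in the knockout, with a log2 fold change of -0.65 ± 0.09 (SE; adjusted p 0.0033 by the quasi-likelihood test of edgeR). The call held without any 1 library, with adjusted p from 0.00323 to 0.0146 and log2 fold changes from -0.73 to -0.61. No other annotated gene overlaps Spc24.

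The partners of SPC24 in the complex had small positive log2 fold changes that did not pass the test. Spc25 was at 61.2, 53.5 and 53.8 CPM in the knockout libraries, against 51.7, 46.5 and 51.2 CPM in the wild-type libraries (log2 fold change 0.17 ± 0.09, adjusted p 0.386). Ndc80 and Nuf2, the microtubule-binding pair, had log2 fold changes of 0.05 ± 0.09 and 0.03 ± 0.08 (adjusted p 0.872 and 0.93). Of the reads on the 4 subunits together, not corrected for gene length, Spc24 took 14.0%, 14.1% and 13.9% in knockout libraries 1, 2 and 3, against 21.8%, 20.3% and 21.5% in wild-type libraries 1, 2 and 3. These shares do not depend on how libraries are scaled, and the groups do not overlap.

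Cenpf and Cenpe encode large coiled-coil proteins of the corona, the outermost layer that forms on kinetochores before attachment. CENP-E is a kinesin that moves chromosomes towards the middle of the spindle, and CENP-F binds microtubules and dynein regulators. Cenpf (ENSMUSG00000026605.14, chromosome 1, 189640606 to 189688107) was at 199, 177 and 178 CPM in the knockout libraries, against 145, 151 and 148 CPM in the wild-type libraries. Cenpe (ENSMUSG00000045328.11, chromosome 3, 135212563 to 135273540) was at 229, 209 and 202 CPM in the knockout libraries, against 171, 177 and 169.8 CPM in the wild-type libraries. In both genes the wild-type libraries lay close together and knockout library 1 was highest. The log2 fold changes were 0.32 ± 0.07 for Cenpf (adjusted p 0.0375) and 0.30 ± 0.07 for Cenpe (0.047). Both calls were lost without any 1 of the 6 libraries, with adjusted p from 0.0601 to 0.131 for Cenpf and from 0.0671 to 0.149 for Cenpe, while the log2 fold changes stayed between 0.25 and 0.36. The remaining outer genes, Mis12 and Dsn1 of the MIS12 complex and Knl1, the scaffold of checkpoint proteins, did not pass the test, with log2 fold changes of 0.08, -0.09 and 0.01.

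**Figure D2:**
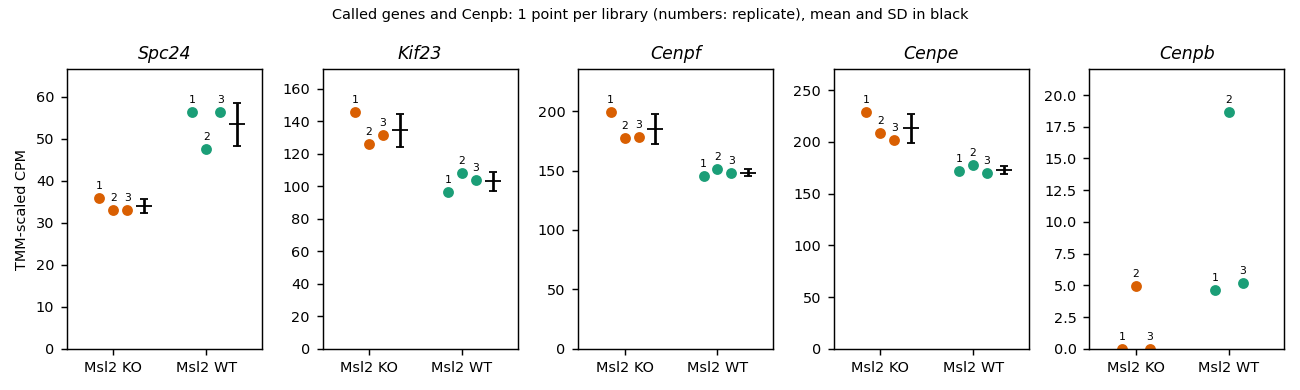
Each panel plots 1 gene, with TMM-scaled CPM on a vertical axis from 0 and 1 numbered point per library, knockout left and wild type right; black marks give the mean and SD, left out for Cenpb. Spc24 sits at 32.95 to 35.9 CPM in the knockout and 47.5 to 56.3 CPM in the wild type, and Cenpb at 0 in knockout libraries 1 and 3.

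Of 8 inner kinetochore genes 0 were called by edgeR, against 4.59% of all tested genes. An unadjusted p under 0.05 was found for 2 of the 8, against 15.4% of all tested genes. Limma-voom and DESeq2 also called 0, and DESeq2 gave no adjusted p for Cenpb. Cenpb (ENSMUSG00000068267.5, chromosome 2, 131177289 to 131180067) encodes the protein that binds a sequence box in centromeric satellite DNA. It had 0, 106 and 0 reads in knockout libraries 1, 2 and 3, against 66, 331 and 78 reads in wild-type libraries 1, 2 and 3, which is 0, 4.98 and 0 CPM against 4.66, 18.7 and 5.18 CPM. Its level was the highest of its group in library 2 of both genotypes, and knockout library 2 lay between wild-type libraries 1 and 3. A count of 0 allows up to 0.187 CPM in knockout library 1 and 0.198 CPM in library 3, counting 3 reads as the limit. The log2 fold change of -2.39 ± 1.00 (SE) did not pass (adjusted p 0.278). With 1 library left out the adjusted p ranged from 0.00427, without knockout library 2, to 0.677, without wild-type library 2. With both libraries numbered 2 left out, Cenpb was at least 25.6-fold lower in knockout libraries 1 and 3 than in wild-type libraries 1 and 3. That takes 3 reads in each of the 2 knockout libraries as the floor. The fold follows from leaving out the only knockout library with Cenpb reads, so it is no bound for the knockout group.

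The other inner genes, which build the layer on CENP-A chromatin, differed little. Cenpi was at 62.8, 55.7 and 60.1 CPM in the knockout libraries, against 48.1, 48.2 and 57.9 CPM in the wild-type libraries (log2 fold change 0.21 ± 0.09, adjusted p 0.316), so that wild-type library 3 lay among the knockout values. Cenpa, the centromeric histone itself, and Cenpc1, which links it to the outer layer, had log2 fold changes of 0.09 and 0.14. Cenph, Cenpk, Cenpm and Cenpn lay between -0.05 and 0.03.

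The 5 checkpoint genes all had positive log2 fold changes, from 0.07 to 0.14. The number called was 0 in edgeR, DESeq2 and limma-voom alike, and 0 reached an unadjusted p under 0.05 in edgeR. The edgeR shares over all tested genes were 4.59% called and 15.4% with such a p. Mad2l1, whose product MAD2 blocks the anaphase-promoting complex, was at 137, 132 and 149 CPM in the knockout libraries, against 129.9, 118 and 133 CPM in the wild-type libraries (log2 fold change 0.14 ± 0.08, adjusted p 0.488). Bub1b, which encodes BUBR1 of the same inhibitory complex, was at 305, 279 and 298 CPM in the knockout libraries, against 266, 272 and 302 CPM in the wild-type libraries (0.07 ± 0.08, adjusted p 0.776). The groups overlapped in both. The kinase genes Bub1 and Ttk had separate groups, higher in the knockout, as had 9.68% of all tested genes. Their log2 fold changes were 0.13 and 0.12.

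The 6 genes of the passenger complex and mitotic kinases were likewise all positive, from 0.03 to 0.25. Calls numbered 0 in edgeR, in DESeq2 and in limma-voom, with 0 unadjusted p under 0.05 in edgeR. For all tested genes edgeR gave 4.59% called and 15.4% with such a p. Plk1, the Polo-like kinase of mitotic entry and centrosome maturation, was at 71.8, 70.9 and 80.8 CPM in the knockout libraries, against 50.7, 60.5 and 76.8 CPM in the wild-type libraries. Its wild-type values had the widest range on the log2 scale (0.60) of any listed gene but Cenpb, and library 3 lay among the knockout values (log2 fold change 0.25 ± 0.13, adjusted p 0.442). The chromosomal passenger complex joins the kinase Aurora B to INCENP, survivin (Birc5) and borealin (Cdca8) and corrects faulty attachments. Its genes had log2 fold changes of 0.15 for Aurkb, 0.19 for Incenp and 0.13 for Birc5. Cdca8 was at 115, 109 and 124 CPM in the knockout libraries, against 104, 113 and 123 CPM in the wild-type libraries (0.03 ± 0.08, adjusted p 0.944).

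All 11 genes of motors and spindle proteins were positive, from 0.11 to 0.38, and 1 of them rose, where 1.8% of all tested genes rose. Kif23 (ENSMUSG00000032254.10, chromosome 9, 61917277 to 61946810) encodes MKLP1, the kinesin of the centralspindlin complex that bundles microtubules between the separating chromosomes. It was at 146, 126 and 131 CPM in the knockout libraries, against 96.7, 108 and 104 CPM in the wild-type libraries. The groups did not overlap, and the log2 fold change was 0.38 ± 0.08 with an adjusted p of 0.024, or 1.3-fold. Left-out libraries gave log2 fold changes from 0.32 to 0.44 with adjusted p from 0.0354 to 0.103, and the call was lost without knockout library 1 or 3 or wild-type library 1 or 2 (adjusted p 0.0841, 0.0549, 0.103 and 0.0532).

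A further 4 genes of this group had an unadjusted p under 0.05 with separated groups. Of all tested genes, 15.4% had such a p and 20.9% had separated groups. Kif2c, a kinesin that takes microtubules apart at centromeres, was at 101, 93.5 and 98.0 CPM in the knockout libraries, against 76.7, 79.5 and 90.3 CPM in the wild-type libraries (adjusted p 0.144). With 1 library left out its adjusted p ranged from 0.0469, without wild-type library 3, to 0.423. Aspm, a spindle pole protein, was at 219, 199.6 and 194 CPM in the knockout libraries, against 176, 176 and 181 CPM in the wild-type libraries (adjusted p 0.188). Their log2 fold changes were 0.24 and 0.20, against 0.38 for Kif23. Kif11, the kinesin that pushes spindle poles apart, was at 485, 437 and 455 CPM in the knockout libraries, against 383, 391 and 423 CPM in the wild-type libraries (adjusted p 0.226). Nusap1, which binds spindle microtubules, was at 161, 136 and 136 CPM in the knockout libraries, against 123, 126 and 128 CPM in the wild-type libraries (adjusted p 0.271). Their log2 fold changes were both 0.20, and for Nusap1 knockout library 1 stood apart from the others of its group. Kif20b, a kinesin of late division, had the smallest difference of the group, at 163, 152 and 150.3 CPM in the knockout libraries, against 135, 149 and 147 CPM in the wild-type libraries (0.11 ± 0.07, adjusted p 0.57).

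Both cytokinesis genes had separated groups, as had 20.9% of all tested genes, but missed the threshold. Ect2, the exchange factor that activates RhoA at the division furrow and is recruited by centralspindlin, was at 154, 148 and 163 CPM in the knockout libraries, against 122, 131 and 132 CPM in the wild-type libraries (log2 fold change 0.28 ± 0.07, adjusted p 0.0641). The adjusted p was 0.0187 in DESeq2, 0.0365 on library totals only and 0.0445 with genes under a mean log2 CPM of 2 dropped. It was 0.0625 in limma-voom, 0.0608 with RLE scaling and 0.0729 to 0.224 with 1 library left out, none of them called. Anln, the furrow scaffold anillin, was at 143, 137 and 133 CPM in the knockout libraries, against 117, 123 and 109 CPM in the wild-type libraries (0.24 ± 0.07, adjusted p 0.118). The 2 genes of mitotic chromosomes showed the same separation. Mki67, whose product Ki-67 coats chromosomes, was at 1012, 1010.4 and 968 CPM in the knockout libraries, against 863, 855 and 784 CPM in the wild-type libraries (0.26 ± 0.08, adjusted p 0.0966). Its adjusted p was 0.00881 in DESeq2, 0.0724 in limma-voom and 0.165 to 0.302 with 1 library left out. Top2a, the topoisomerase that untangles sister chromatids, was at 1768, 1519 and 1517 CPM in the knockout libraries, against 1322, 1356 and 1408 CPM in the wild-type libraries (0.23 ± 0.09, adjusted p 0.21).

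Among the 7 genes of CDK1, its cyclins and its regulators 0 were called by edgeR, DESeq2 or limma-voom, and 1 had an unadjusted p under 0.05 in edgeR. Over all tested genes edgeR called 4.59%, and 15.4% had such a p. Cdk1, the kinase of mitotic entry, was at 291, 256 and 262 CPM in the knockout libraries, against 214, 223 and 257 CPM in the wild-type libraries (0.22 ± 0.09, adjusted p 0.263). Wild-type library 3 lay just above the lowest knockout library. The cyclin genes Ccna2, Ccnb1 and Ccnb2 had log2 fold changes of 0.12, 0.13 and 0.10, Cdc20, the activator of the anaphase-promoting complex, 0.13, and the phosphatase gene Cdc25c 0.11. Cdc25b, a phosphatase that activates CDK1, was the only negative one, at 67.7, 56.5 and 58.1 CPM in the knockout libraries, against 73.2, 66.0 and 66.2 CPM in the wild-type libraries (-0.17 ± 0.09, adjusted p 0.423). Its groups overlapped through knockout library 1.

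**Figure D3:**
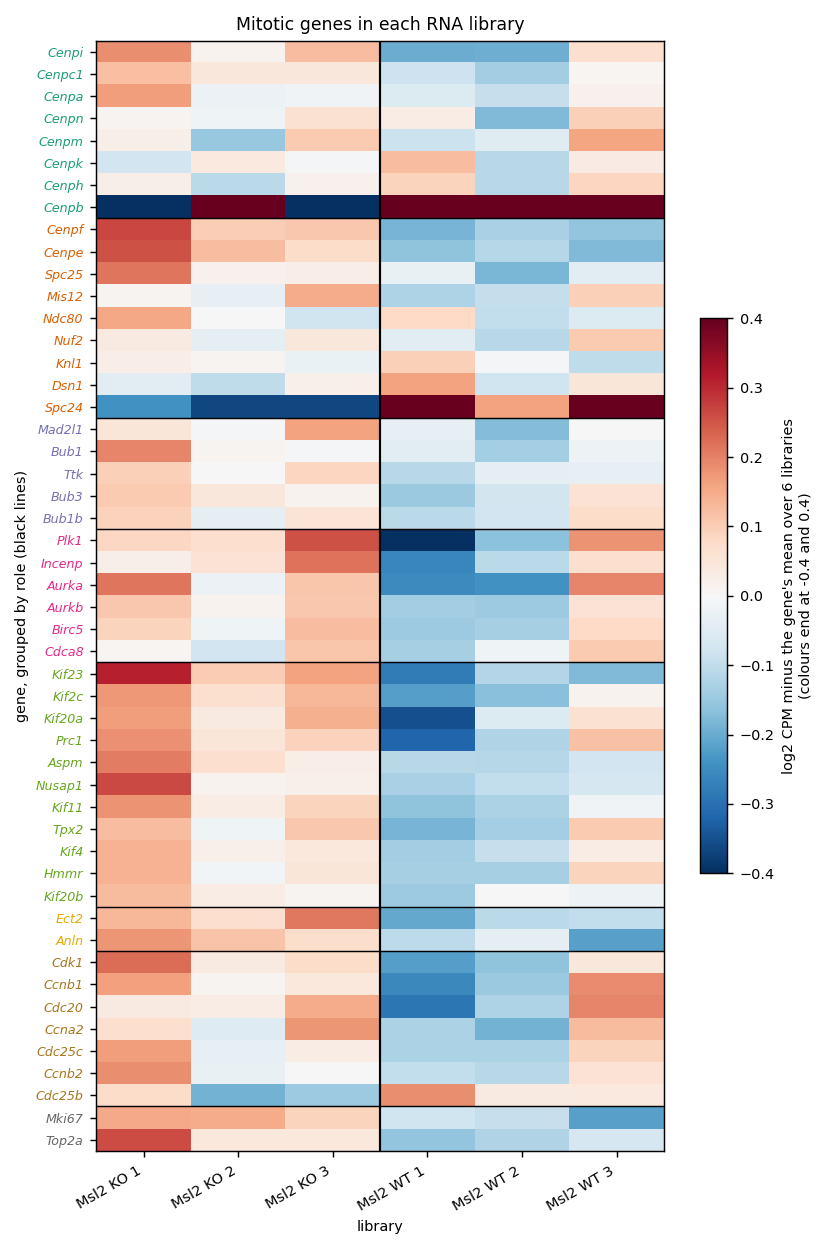
Rows are the 50 genes grouped by role and columns the 6 libraries, knockout left of the thick line; colour gives log2 CPM minus the gene's mean over the libraries, ending at -0.4 and 0.4. Knockout library 1 is the highest of the 6 for 29 genes and wild-type library 1 the lowest for 25, which was not counted over all tested genes. Wild-type library 3 is above the gene's own mean for 34 genes, against 50.9% of all tested genes.

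The libraries within a group were not alike for these genes. Taking each gene relative to its mean over the 6 libraries on the log2 scale, the median over the 50 genes was 0.13, 0.014 and 0.065 in knockout libraries 1, 2 and 3, against -0.13, -0.11 and 0.052 in wild-type libraries 1, 2 and 3. Wild-type library 3 thus lay above knockout library 2 and apart from the other wild-type libraries. The same medians over all tested genes lay between -0.0053 and 0.0049. Both wild-type libraries 1 and 2 were below all knockout libraries for 39 of the 50 genes, against 17.5% of all tested genes. For 23 of the 50 genes this held while wild-type library 3 was above the lowest knockout library, against 7.84% of all tested genes. Library 3 was set apart here after the values were seen. Against the mean of wild-type libraries 1 and 2, the median of the 50 genes was 0.192 higher in the knockout mean and 0.136 higher in wild-type library 3.

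How far wild-type library 3 stood from its group differed by gene, a pattern described after the values were seen. It was 0.47 above the mean of wild-type libraries 1 and 2 for Plk1, 0.44 for Aurka, 0.40 for Cdc20 and 0.39 for Ccnb1, all on the log2 scale. Aurka encodes the Aurora kinase of spindle poles. The next genes in this order were Prc1 (0.34) and Ccna2 (0.28), while Ccnb2 was at 0.16 and Cdc25b at -0.07. For the first 4, wild-type library 3 passed the knockout mean. It was within 0.05 of the mean of wild-type libraries 1 and 2 for Cenpe (-0.039), Cenpf (-0.0013), Kif23 (0.024) and Aspm (0.037), and lower for Mki67 (-0.13) and Anln (-0.15). Without wild-type library 3 the median log2 fold change of the 50 genes was 0.19, and it was 0.095 without wild-type library 1 and 0.11 without knockout library 1.

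**Figure D4:**
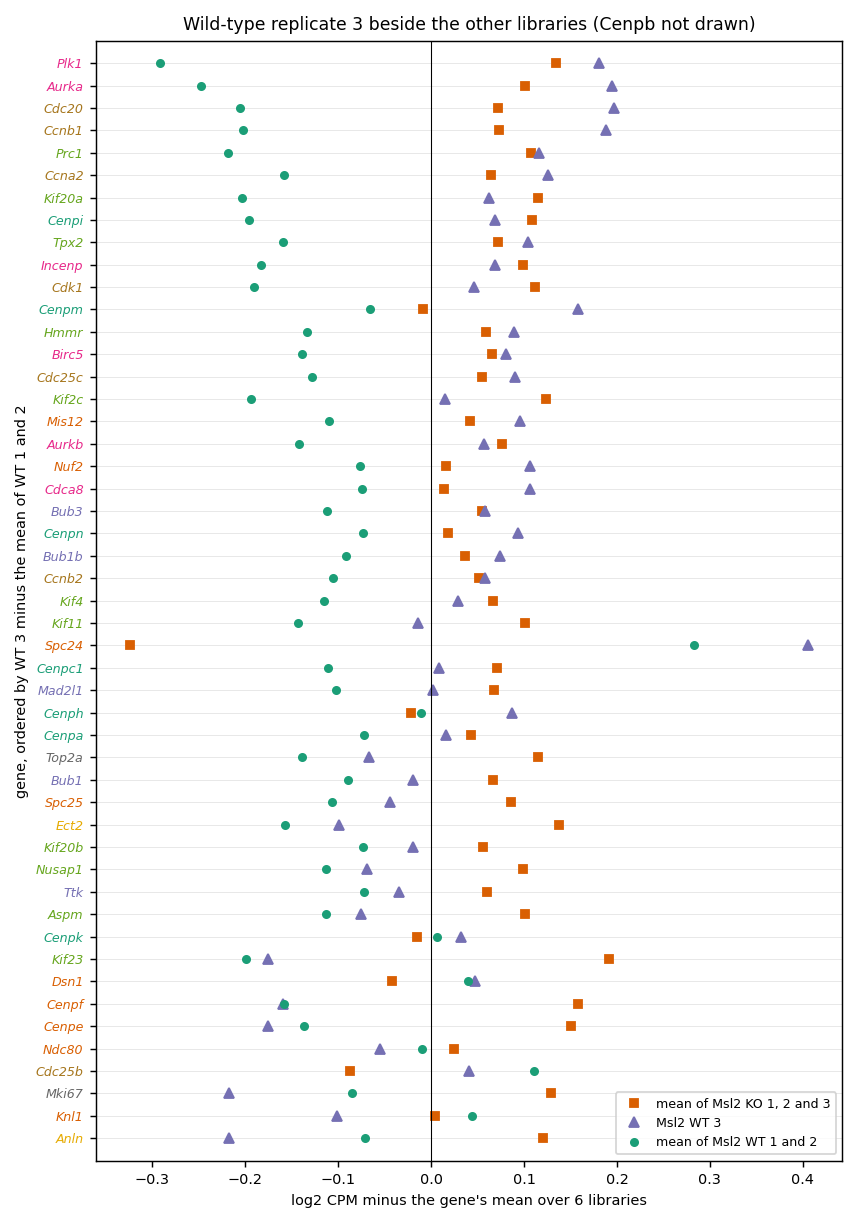
The horizontal axis gives log2 CPM minus the gene's mean over 6 libraries, for the knockout mean (squares), wild-type library 3 (triangles) and the mean of wild-type libraries 1 and 2 (circles), with genes ordered by the gap between the last pair. Plk1, at the top, has triangle and square together and its circle 0.47 below the triangle, while for Cenpe and Cenpf triangle and circle lie together.

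Promoters of genes of this phase often carry a CHR element, bound by the DREAM repressor in resting cells and by MYB-MuvB with FOXM1 in dividing cells, downstream of CCAAT boxes bound by NF-Y. Promoter windows of 300 bases (250 before to 50 after a transcript start in the promoter table, RefSeq, GRCm38.p6, which is mm10) were found for 43 of the 50 genes, all but Spc24, Aurkb, Incenp, Kif20a, Tpx2, Ccna2 and Cdc25c. Windows are shown for the 3 genes that rose, for Plk1, whose log2 level ranged most among wild-type libraries after Cenpb, and for Cenpb, with CHR (TTTGAA or TTCGAA) and CCAAT matches on either strand in capitals.
Cenpe, chr3:135212313-135212612, plus strand: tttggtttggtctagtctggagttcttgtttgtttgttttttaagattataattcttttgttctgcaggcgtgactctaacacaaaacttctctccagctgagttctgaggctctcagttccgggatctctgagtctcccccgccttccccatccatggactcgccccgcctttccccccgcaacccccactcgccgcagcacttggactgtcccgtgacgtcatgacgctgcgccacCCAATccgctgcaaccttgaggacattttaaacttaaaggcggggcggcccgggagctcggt
Cenpf, chr1:189688037-189688336, minus strand: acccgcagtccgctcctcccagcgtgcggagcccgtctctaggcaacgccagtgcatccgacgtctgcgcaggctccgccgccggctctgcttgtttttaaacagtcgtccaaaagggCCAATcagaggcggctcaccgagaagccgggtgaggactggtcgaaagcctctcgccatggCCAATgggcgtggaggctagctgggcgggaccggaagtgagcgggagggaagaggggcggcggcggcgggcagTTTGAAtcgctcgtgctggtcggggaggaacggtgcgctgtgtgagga
Kif23, chr9:61946750-61947049, minus strand: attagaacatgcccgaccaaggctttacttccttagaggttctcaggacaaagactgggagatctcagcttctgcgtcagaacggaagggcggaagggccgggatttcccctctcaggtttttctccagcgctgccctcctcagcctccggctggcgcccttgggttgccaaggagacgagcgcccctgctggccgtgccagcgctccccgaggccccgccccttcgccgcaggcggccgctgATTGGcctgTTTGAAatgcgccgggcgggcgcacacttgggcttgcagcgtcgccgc
Plk1, chr7:122159185-122159484, plus strand: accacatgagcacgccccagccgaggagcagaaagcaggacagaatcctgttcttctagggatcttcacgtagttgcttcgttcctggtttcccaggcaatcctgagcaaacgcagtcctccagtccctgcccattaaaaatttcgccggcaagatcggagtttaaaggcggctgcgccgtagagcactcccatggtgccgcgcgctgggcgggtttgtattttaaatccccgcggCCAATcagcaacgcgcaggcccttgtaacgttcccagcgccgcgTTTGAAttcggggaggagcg
Cenpb, chr2:131180018-131180317, minus strand: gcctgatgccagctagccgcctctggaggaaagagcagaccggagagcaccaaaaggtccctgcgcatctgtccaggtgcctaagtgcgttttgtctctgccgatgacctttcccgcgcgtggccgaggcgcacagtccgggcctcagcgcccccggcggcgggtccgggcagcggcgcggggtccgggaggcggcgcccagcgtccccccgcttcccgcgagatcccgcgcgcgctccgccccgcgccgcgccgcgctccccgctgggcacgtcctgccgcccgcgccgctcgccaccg

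The start that a window is built on lies 21 bases inside the gene bound given above for Cenpf and 11 bases inside it for Kif23, and at the bound for the other 3 genes shown. Counting the first base of the window's own start as 1, a CHR match began at base 3 in Cenpf, 3 in Kif23 and 31 in Plk1. The nearest CCAAT match began at base -71 in Cenpf, -7 in Kif23 (on the opposite strand) and -14 in Plk1. Cenpe had a CCAAT match at base -12 and no CHR match in this window, and Cenpb had neither. Some genes have several starts (48 windows for the 43 genes, 32851 for all genes of the table), and a gene was counted if any of its windows held a match. A CHR match was present in 30 of 43 genes (69.8%), against 21.7% of the 27025 genes of the table. A CCAAT match was present in 32 (74.4%), against 41.1%, and both together in 25 (58.1%), against 8.6%. An E2F-type match (TTCCCGC or TTGGCGC) was present in 11 (25.6%), against 7.8%, and a YY1-type match (ANATGGC) in 8 (18.6%), against 17.1%. The motifs were searched on both strands and differ in letters, a match is no evidence of binding, and these shares describe the list and not the knockout.

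**Figure D5:**
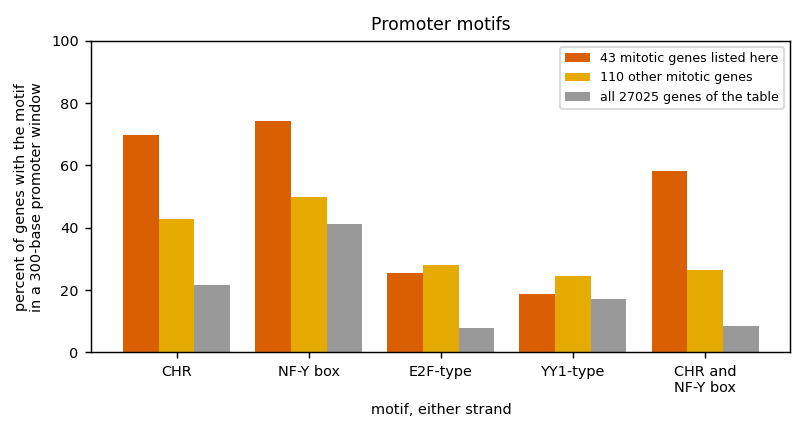
Bars give the percent of genes with a match in the promoter window, for the mitotic genes listed here, for 110 other mitotic genes and for all genes of the table, with the vertical axis from 0 to 100. CHR matches are in 69.8%, 42.7% and 21.7% of these, and YY1-type matches in 18.6%, 24.5% and 17.1%.

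A wider set of 135 mitotic genes outside the 50 was counted in the same fit. Of these 1 rose and 1 fell, fewer than the 1.8% and 2.79% of all tested genes. Positive log2 fold changes numbered 87 (64.4%), against 51% of all tested genes, and the median was 0.062. No member was called among 29 other kinetochore genes, 8 condensin genes or 17 cohesin and separase genes. The same held for 18 genes of the anaphase-promoting complex and 33 centrosome and spindle genes. In this order 2, 1, 3, 0 and 6 had an unadjusted p under 0.05 in edgeR, against 15.4% of all tested genes. DESeq2 called 1 cohesin or separase gene and none of the others, and limma-voom called none in these lists. The medians of these lists were 0.04, 0.09, 0.09, 0.04 and 0.07, and all 8 condensin genes were positive. Foxm1, the transcription factor that acts on CHR promoters with MYB-MuvB, rose among 16 genes of that machinery. It was at 68.6, 63.9 and 70.4 CPM in the knockout libraries, against 51.1, 56.7 and 51.9 CPM in the wild-type libraries (log2 fold change 0.34 ± 0.08, adjusted p 0.0357), and the call was lost without any 1 library (adjusted p from 0.0532 to 0.135). Nek6, a kinase of spindle formation, fell among 14 other mitotic kinases and regulators. It was at 31.2, 32.2 and 30.2 CPM in the knockout libraries, against 52.7, 47.4 and 47.3 CPM in the wild-type libraries (-0.65 ± 0.08, adjusted p 0.00185), and the call held without any 1 library (adjusted p from 0.00374 to 0.00864). Nek6 and Spc24 were thus the called mitotic genes whose calls held in all 6 of those fits.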

How the data were processed

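RNA-seq read counts per gene were analysed in 3 Msl2 knockout and 3 wild-type libraries, grouped by title. Another 9 samples, ChIP and input, were left out as they measure no RNA. The authors deposited whole-number counts per gene. Per the submitters' processing notes, mm10, limma, featureCounts 2.0.0 and STAR 2.5.3a were used, with no role stated. Not given in the sources used here were the strand setting, the annotation release and the treatment of multi-mapping reads. Identifiers were named with a gene table, which gave a symbol for 54587 of 55335. The 50 genes and the other lists were chosen with earlier results of these data known. Genes passing edgeR's filterByExpr were fitted with TMM scaling and the quasi-likelihood test (edgeR 4.0.16, R 4.3.3), with Benjamini-Hochberg adjustment over 13077 genes and a threshold of 0.05. CPM values are counts per 1000000 reads on the TMM-scaled library sizes. Total counts were 14092278 to 20803227 per library, so that a count of 0 allows up to 0.141 to 0.212 CPM (3 reads, counting error only). No pair of libraries in a group agreed within sampling noise. Named genes were those called, the extremes of each role group and those at an unadjusted p under 0.05, with called members of the wider lists. Alternatives were RLE scaling, library totals, other filters, DESeq2 1.42.0, limma-voom (limma 3.58.1), a replicate block and left-out libraries. The edgeR fit was tested on simulated counts, with the changed genes drawn from all tested genes and not from the list. It called 1 of 50 genes changed 1.25-fold, 17 of 50 changed 1.5-fold and 40 of 50 changed 2-fold. Of 12621 unchanged genes it called 3. The 50 listed genes had a median level of 128 CPM, against 23.9 CPM over all tested genes, and recovery at their level was not tested. A gene that was not called is thus not shown to be unchanged.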

Additional observations from a re-analysis of the deposited data

How the results depend on the processing

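The log2 fold change of Spc24 was negative and called under all alternatives run. The median over the 50 genes was 0.13 in the main fit, 0.129 to 0.154 under other scalings, filters, tests and the replicate block, and 0.0951 to 0.194 with 1 library left out. The 3 genes that rose became 5 in DESeq2 (with Ect2 and Mki67), and 0 to 2 with 1 library left out. Without both libraries numbered 2, edgeR called 0 higher, and 2 lower, the second being Cenpb. The gene that fell was joined by Cenpb, for 2, with no low-count filter, and the count was 1 to 2 with 1 library left out. The Cenpb test had 106784 degrees of freedom with no filter, against 10.1 in the main fit. Over all genes, 235 higher and 365 lower became 482 and 721 with no filter, and 138 to 227 and 242 to 316 with 1 library left out. Lower calls were 232 when genes under a mean log2 CPM of 2 were dropped, and 224 without both libraries numbered 2. The cause of these shifts was not tested. Without knockout library 1 the share of higher genes among calls was 31.7%, against 39.2% in the main fit.

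Same-numbered libraries correlated at 0.0294, 0.212 and 0.403 in their deviations from the group means. Knockout library 2 correlated best with wild-type library 1, at 0.272, and the other differently numbered pairs lay between -0.396 and -0.0101. The labels do not say whether same-numbered libraries belong together, and these values do not settle it. With the replicate number as a block, 381 genes were higher and 565 lower, with 6 and 2 of the 50. The added calls were Ect2 (adjusted p 0.0315), Anln (0.0479), Mki67 (0.0312) and, lower, Cenpb (0.0323).

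No called gene reversed, but small uncalled differences did. Cenpm was 0.000827 with library totals only and 0.027 without both libraries numbered 2, where Cenpn was -0.0225. With 1 library left out the log2 fold changes were -0.112 to 0.00504 for Cenph, -0.0936 to 0.0229 for Cenpk, -0.0748 to 0.06 for Cenpm, -0.0463 to 0.0911 for Cenpn, -0.0148 to 0.105 for Ndc80, -0.0183 to 0.0946 for Nuf2, -0.0382 to 0.0563 for Knl1 and -0.0317 to 0.0901 for Cdca8. With 3 libraries a group, the median standard error of the 50 genes was 0.0845 on the log2 scale.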
